A study of Drosophila melanogaster with 6 samples.

Results

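The Pgant genes of Drosophila encode polypeptide GalNAc transferases, and 9 of them (Pgant2, Pgant3, Pgant4, Pgant5, Pgant6, Pgant7, Pgant8, Pgant9 and Pgant35A) are described here across all 6 arrays of a study of NELF depletion. Members were taken by gene symbol, as every probe set that the array's annotation gives to 1 of these genes and to no other. This gave 12 probe sets of the 18952 on the array, and 9 genes of the 11981 tested. The family was picked with its values known, since Pgant2 was far lower in NELF-depleted than in mock cells. The values of all members in NELF-depleted cells are therefore a description, and limma p-values and calls for them are no independent test.

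Total RNA came from S2 cells of the Drosophila Genomics Resource Center (DGRC), a fly line started from late embryos whose cells resemble blood cells, grown in M3 medium with bacto-peptone, yeast extract and FBS. An untreated group had no dsRNA added. Mock cells were given dsRNA for β-galactosidase, which has no target in the fly, and NELF-depleted cells dsRNA for the NELF-B and NELF-E subunits. Cells of both dsRNA groups were harvested after 96 hours, and each group has 2 Affymetrix Drosophila Genome 2.0 arrays. NELF, the negative elongation factor, keeps RNA polymerase II paused shortly after the start of a gene. Nothing in the labels ties the arrays to separate cultures, so an error or p-value here covers the array-to-array spread alone, which may be technical. In bulk RNA, fewer cells making a transcript and less of it per cell cannot be told apart.

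Mucin-type O-glycosylation starts in the Golgi, where a polypeptide GalNAc transferase moves GalNAc from UDP-GalNAc onto a serine or threonine of a passing protein. Some members act on bare peptides and others prefer peptides that already carry a GalNAc. Other enzymes then lengthen the sugar, often with a galactose added by core 1 galactosyltransferase. In the fly these glycans coat secreted mucins and matrix proteins, and several Pgant genes are needed for viability, adhesion or secretion.

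Levels are normalized log2 intensities, and 1 unit is a factor of 2. Background was set at 3.88 on this scale, a deposited intensity of 13.9, which is the 95th percentile of 17 control probe sets without a target in fly RNA. The deposited intensities had array medians between 11.7 and 14.2. Both targeted mRNAs fell in NELF-depleted against mock cells, NELF-B with a log2 change of -1.94 (SE 0.170, limma adjusted p = 0.000284) and Nelf-E with -2.40 (SE 0.155, limma adjusted p = 7.37e-05). Of 12 hemocyte markers 10 had a mean above background, whereas NimC1, a phagocytic receptor gene, was below it on every array. Of 9 measured markers of other cell types, elav, shg and crb were above background on all 6 arrays.

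Pgant2 mRNA in NELF-depleted cells was at 24.3% of its mock level. By group means of quantile normalized levels, none of the other 6 members above background differed by more than 1.31-fold between NELF-depleted cells and either control. Those 6 were Pgant3, Pgant5, Pgant6, Pgant7, Pgant9 and Pgant35A, each above background on all 6 arrays. Pgant4 and Pgant8 were below background on all 6 arrays. By limma with an intensity-dependent prior, 1 of the 9 members, Pgant2, was called in NELF-depleted against mock cells at an adjusted p under 0.05 over all genes, and it was lower. Over all 11981 genes, 1.35% were called, 1.09% lower and 0.267% higher. Against untreated cells Pgant2 was again the 1 member called, where 1.41% of all genes were called, 1.18% lower and 0.234% higher. Since the values of Pgant2 led to the choice of the family, nothing is read from these counts.

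**Figure D1:**
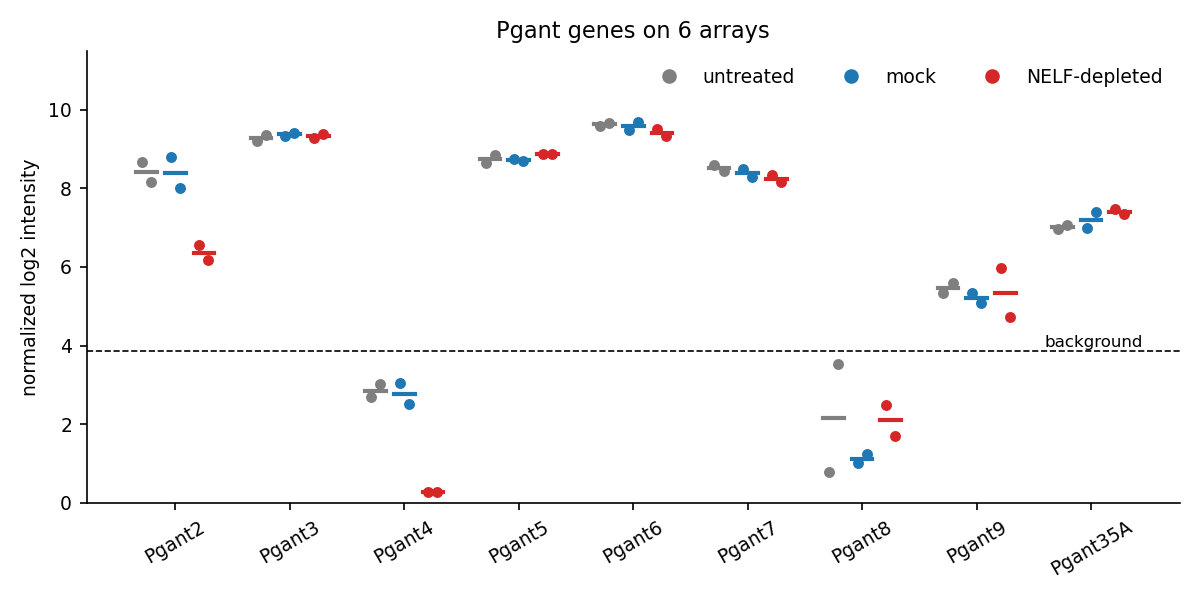
Normalized log2 intensity of each Pgant gene on the 6 arrays, read by its brightest probe set. Points are arrays, short lines are means of 2 arrays, and the dashed line marks background at 3.88; Pgant2 lies lower on both NELF-depleted arrays than on the 4 control arrays.

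Pgant2 encodes a GalNAc transferase and was read by a bright and a dim probe set. By the bright one, its levels were 6.55 and 6.17 in NELF-depleted cells, 8.81 and 7.997 in mock cells and 8.66 and 8.16 in untreated cells. The deposited intensities behind these were 85.9 and 59.7, 498 and 200.3, and 487 and 339, in the same order. Both NELF-depleted arrays were thus below every control array, with a gap larger than the difference between the arrays of any group.

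Group means for Pgant2 were 6.36 ± 0.266 (SD, n = 2) with NELF depleted, 8.40 ± 0.574 in mock and 8.41 ± 0.359 without dsRNA. The log2 change was -2.04 (SE 0.260, 95% interval from -2.62 to -1.46) against mock. Against untreated cells it was -2.05 (SE 0.260, 95% interval from -2.62 to -1.47), a contrast that shares the NELF-depleted arrays with the first. Among the 6532 genes with a mean above background, the Pgant2 change ranked 14 from the lowest against mock and 15 against untreated cells. With 1 prior variance shared by every gene (the single prior), limma gave the same change but called 0 of the 11981 genes in either contrast. The limma adjusted p of Pgant2 was then 0.228 against mock and 0.253 against untreated cells. Over all genes the smallest against mock was 0.139. An unadjusted p under 0.05 against mock was found for 1097 genes (9.16%), against 11.0% of genes with the intensity-dependent prior.

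The dim Pgant2 probe set had deposited intensities of 16.1 and 7.45 in NELF-depleted cells, 26.1 and 55.5 in mock cells and 47.3 and 42.5 in untreated cells. Again both NELF-depleted arrays were the lowest, and 1 of them was below background. Its NELF-depleted mean was below background too, so no fold change is given for it. The mock arrays came in opposite orders on the 2 probe sets.

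**Figure D2:**
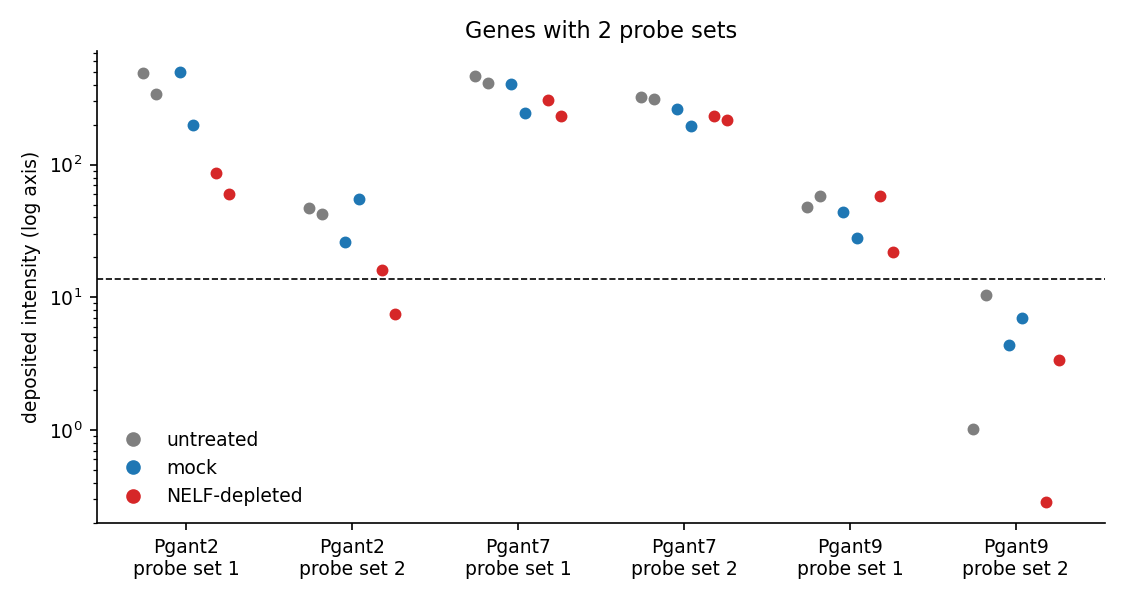
Deposited intensity, before normalization and on a log axis, of both probe sets of Pgant2, Pgant7 and Pgant9 on the 6 arrays. Points are arrays and the dashed line is background at 13.9; both Pgant2 probe sets have their lowest values on the NELF-depleted arrays, and the dimmer Pgant9 probe set is below background throughout.

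Of the 9 members, Pgant2, Pgant4 and Pgant5 had NELF-depleted arrays that did not overlap with the 4 control arrays, Pgant2 and Pgant4 lower and Pgant5 higher. Over all genes, 11.0% were lower and 11.1% higher in this sense.

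Pgant3 glycosylates the integrin ligand Tiggrin in the developing wing and is needed for cell adhesion there. It read 9.28 and 9.37 with NELF depleted, 9.34 and 9.41 in mock and 9.20 and 9.35 in untreated cells. The groups overlapped, and the log2 change against mock was -0.05 (SE 0.100, 95% interval from -0.27 to 0.17). That interval leaves out a change of the size seen for Pgant2.

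Pgant5 is required for viability and for acidification of the larval gut. Its levels were 8.86 and 8.86 on the NELF-depleted arrays, 8.74 and 8.70 in mock and 8.64 and 8.84 in untreated cells. Both NELF-depleted arrays were the highest, by a small margin, and the change against mock was 0.14 (SE 0.108, 95% interval from -0.10 to 0.38).

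For Pgant6, another transferase of the family, the NELF-depleted arrays read 9.51 and 9.33, the mock pair 9.50 and 9.68 and the untreated pair 9.60 and 9.66. NELF-depleted and mock arrays overlapped, with a change of -0.17 (SE 0.106, 95% interval from -0.41 to 0.06). Both NELF-depleted arrays were below both untreated arrays, as were those of 19.8% of all genes, with a change of -0.21 (95% interval from -0.45 to 0.02).

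Pgant7 prefers substrates already carrying GalNAc. By its brighter probe set it stood at 8.33 and 8.16 with NELF depleted, 8.49 and 8.29 in mock and 8.61 and 8.44 in untreated cells. The change against mock was -0.15 (SE 0.127, 95% interval from -0.43 to 0.14), with overlapping arrays. Both were below both untreated arrays, again a pattern of 19.8% of all genes, and the change was -0.28 with an interval that reached just past 0. In a fit of all 18769 non-control probe sets, the other Pgant7 probe set had a change of 0.06 (SE 0.124, 95% interval from -0.21 to 0.34) against mock, so the signs of the 2 probe sets differed and both intervals held 0.

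Pgant35A is an essential gene whose product is needed for the tubes of the fly's airways. Mock cells had 6.99 and 7.40, untreated cells 6.97 and 7.07 and NELF-depleted cells 7.48 and 7.34. Mock and NELF-depleted arrays overlapped, with a change of 0.21 (SE 0.180, 95% interval from -0.19 to 0.61). Both NELF-depleted arrays were above both untreated arrays, as were those of 21.1% of all genes, with a change of 0.39 (SE 0.180, 95% interval from -0.01 to 0.79).

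Pgant9 makes splice forms that glycosylate secretory granule mucins of the larval salivary gland. Its brighter probe set read 5.97 and 4.72 on the NELF-depleted arrays, which enclose the 5.33 and 5.08 of mock and the 5.35 and 5.58 of untreated cells. The change against mock was 0.14 (SE 0.436, 95% interval from -0.83 to 1.11), the widest interval among the 7 members above background. Its other probe set lay below background on all 6 arrays. The brighter probe set carries the suffix _s_at, as does that of Pgant6, which marks probes that match several transcripts.

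**Figure D3:**
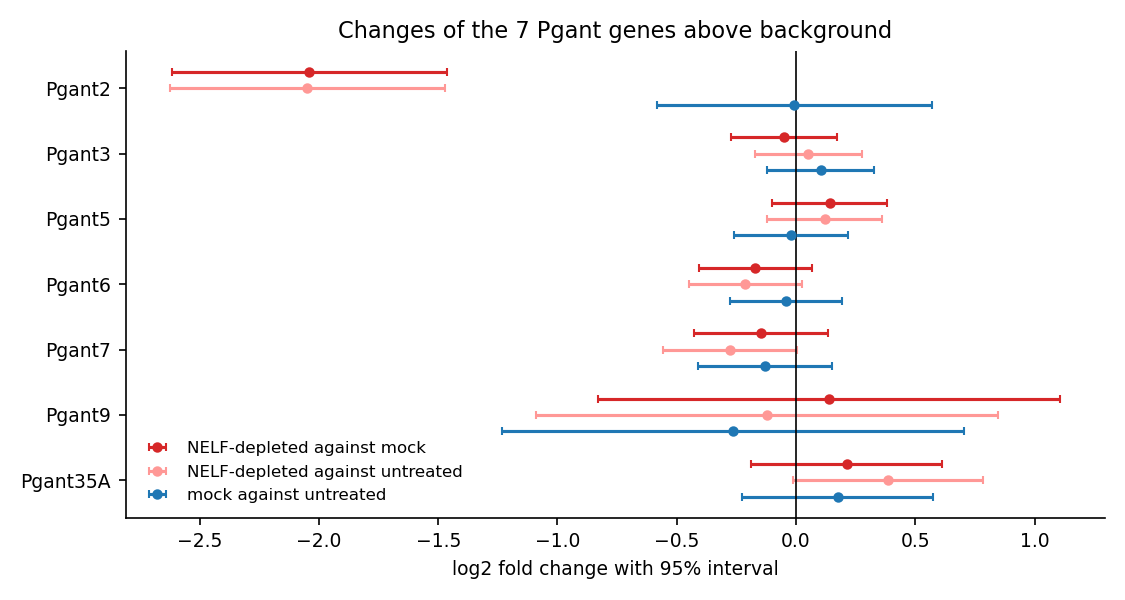
Log2 fold changes with 95% intervals from limma for the 7 Pgant genes above background in the 3 contrasts. Pgant2 lies near -2 against both controls and near 0 for mock against untreated, and the intervals of the other 6 genes hold 0 in every contrast.

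Pgant4 glycosylates the cargo receptor Tango1 in the fly gut, which protects Tango1 from cleavage by a furin protease. Its deposited intensities were 0.346 and 0.385 with NELF depleted, 7.98 and 4.67 in mock and 6.01 and 7.95 in untreated cells. All 6 values were below background, and both NELF-depleted values were below the controls. No fold change is given for it, since both groups had only a bound. Of the 5449 genes with a mean not above background, 7.40% had both NELF-depleted arrays below all 4 control arrays. Tango1 and Fur2, the measured genes of that pathway, were above background on all 6 arrays and had changes against mock of 0.06 (SE 0.102) and -0.23 (SE 0.134), neither called.

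Pgant8 was below background on all 6 arrays, with deposited intensities of 4.25 and 2.24 in NELF-depleted cells, 1.29 and 1.51 in mock and 0.951 and 11.7 in untreated cells. The untreated arrays enclosed the other 4, and no fold change is given.

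The comparison of mock with untreated cells, which was not used to choose the family, asks whether control dsRNA altered these mRNAs. None of the 9 members was called by limma with either prior, and 0 had an unadjusted p under 0.05 with either. Over all genes 0% were called, and an unadjusted p under 0.05 was seen for 3.41% with the intensity-dependent and 5.02% with the single prior. Pgant2 had a change of -0.01 (SE 0.260, limma adjusted p = 1.00, 95% interval from -0.58 to 0.57). Pgant9 had a change of -0.26 (SE 0.436) and was the 1 member whose mock and untreated arrays did not overlap, lower in mock, as were 14.2% of all genes.

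The 5 genes above background whose pattern over the 6 arrays was most like that of Pgant2 were CG42675, NELF-B, cu, Esyt2 and PCB. Likeness was the root mean square difference between log2 levels, each gene centred on its own mean; it was 0.186 for CG42675, 0.239 for NELF-B, 0.249 for cu, 0.264 for Esyt2 and 0.271 for PCB. NELF-B is itself a dsRNA target, cu encodes the fly relative of nocturnin, Esyt2 a membrane-contact protein, and PCB pyruvate carboxylase. CG42675 read 7.71 and 7.13 in NELF-depleted cells, 9.37 and 8.83 in mock and 9.41 and 8.94 in untreated cells. As for Pgant2, the array labelled replicate 1 was the higher one in each group. These genes were picked by their values, so their likeness is a description.

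**Figure D4:**
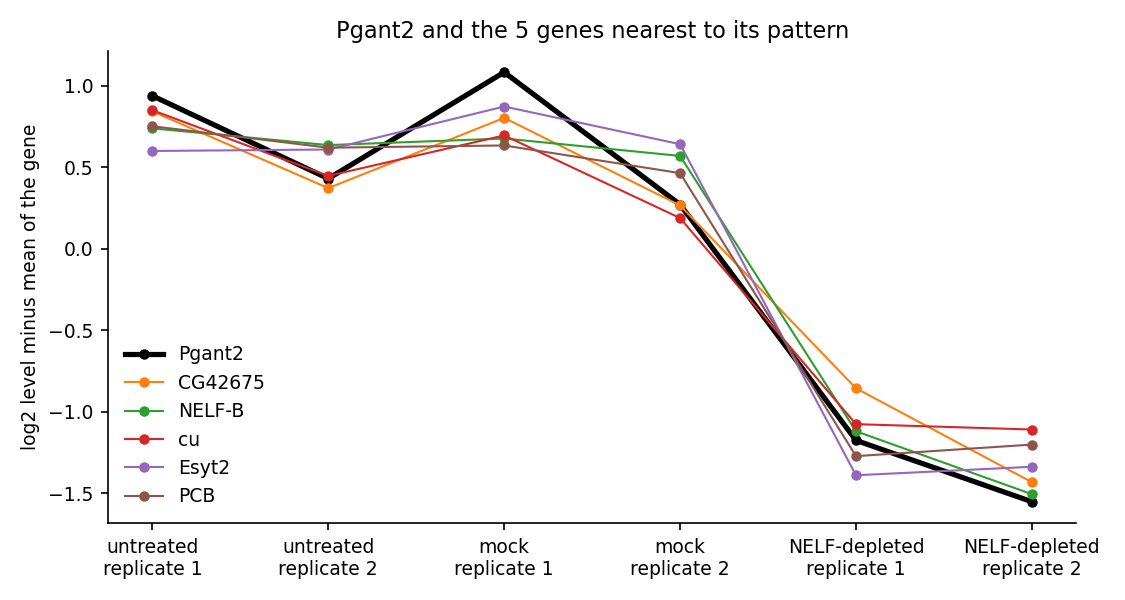
Log2 level minus the mean of each gene for Pgant2 (thick line) and the 5 nearest genes over the 6 arrays. All 6 genes lie above 0 on the 4 control arrays and below 0 on both NELF-depleted arrays.

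In the gene order of the RefSeq assembly Release 6 plus ISO1 MT, Pgant2 and Pgant4 lie on the same chromosome arm with 10 other protein-coding genes between them. Of these, 9 were measured, and none was called in NELF-depleted against mock cells. CG3246 and msl-2 had the lowest values among them, -0.35 (SE 0.349) and -0.31 (SE 0.228). CG34175, the gene directly before Pgant2, was below background on both NELF-depleted arrays (0.88 and 2.08) and read 4.62 and 3.81 in mock and 2.61 and 3.52 in untreated cells. It was at least 1.26-fold lower than in mock cells by group means, with 1 of the 2 mock arrays above background, and was not called (limma adjusted p = 0.187). CG8840 and CG31952, whose annotated spans overlap that of Pgant2, had means below background. Next to Pgant4 lies CG31776, and next to Pgant8 lies CG7579 with CG7304 beside it, all 3 putative members of the same enzyme family.

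Of 5 measured family members outside the 9, Pgant1 was above background on all arrays, with levels of 8.03 and 8.09 in NELF-depleted cells, 8.06 and 7.88 in mock and 8.01 and 7.93 in untreated cells. Its change against mock was 0.09 (SE 0.125, limma adjusted p = 0.874). The putative transferase genes CG7304, CG7579, CG10000 and CG31776 were below background on all 6 arrays. CG10000 was higher on both NELF-depleted arrays (3.26 and 3.49) than on the 4 control arrays, where the highest value was 1.61, and was not called (limma adjusted p = 0.320).

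The list for O-glycan extension also holds GlcAT-I, an enzyme of the proteoglycan linker. Of its 11 measured genes, 4 had a mean above background and none was called by limma with either prior in NELF-depleted against mock cells. An unadjusted p under 0.05 was seen for 5 with the intensity-dependent prior (11.0% of all genes) and 3 with the single prior (9.16% of all genes). The median log2 change was -0.31 over all 11, of which 7 were at or below background, and also -0.31 over the 4 above it, against 0.01 over all genes tested. Those 4, C1GalTA, GlcAT-I, GlcAT-P and GlcAT-S, did not all have the same sign. C1GalTA, which adds the galactose of core 1, had levels of 11.55 and 11.54 with NELF depleted, 12.06 and 11.64 in mock and 12.05 and 12.12 in untreated cells. It was lowest on the NELF-depleted arrays, with a change of -0.31 (SE 0.130, limma adjusted p = 0.410) against mock and -0.54 (limma adjusted p = 0.0943) against untreated cells. GlcAT-I, which helps make the proteoglycan linker, had a change of -0.30 (SE 0.0991, limma adjusted p = 0.253) against mock. The glucuronyltransferase genes GlcAT-P and GlcAT-S had changes of -0.91 (SE 0.314, limma adjusted p = 0.284) and 0.60 (SE 0.209, limma adjusted p = 0.298), the first lower and the second higher on both NELF-depleted arrays than on all 4 control arrays. CG3119 had a mean below background in every group.

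The supply of nucleotide sugars was measured by 12 genes, all with a mean above background. None was called against mock by limma with either prior, and 5 had an unadjusted p under 0.05 with the intensity-dependent prior (11.0% of all genes) and 0 with the single one (9.16%). Among the 6532 genes above background, such p-values were seen for 943 and 506, in the same order. The median change of the 12 genes was 0.02, and 5 of the 12 had lower values. The smallest p-values were those of sgl, which encodes UDP-glucose dehydrogenase, at 0.42 (SE 0.113, limma adjusted p = 0.143), and of mmy, which makes UDP-GlcNAc, at 0.39 (SE 0.107, limma adjusted p = 0.151). For mmy the NELF-depleted arrays read 9.65 and 9.82, above the highest control array at 9.44.

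Of 26 measured mucins and other O-glycosylated secreted proteins, 8 had a mean above background, and none was called against mock by limma with either prior. With the intensity-dependent prior 6 had an unadjusted p under 0.05 (11.0% of all genes) and with the single prior 5 (9.16%). The median change was -0.10 over all 26, of which 18 were at or below background, and 0.07 over the 8 above it. Mur29B, a mucin-related gene, was below background on both NELF-depleted arrays and at least 1.39-fold lower than in mock cells by group means (limma adjusted p = 0.118), where 1 of the 2 mock arrays was above background. Sgs1, a salivary glue gene, had a change of -0.83 (SE 0.267, limma adjusted p = 0.244). Tig, the gene of the Pgant3 substrate Tiggrin, had levels of 10.09 and 9.90 in NELF-depleted and 10.23 and 10.36 in mock cells, with a change of -0.30 (SE 0.104, limma adjusted p = 0.280). Hml, which encodes the clotting protein hemolectin and is also a hemocyte marker, had a change of 1.23 (SE 0.393, limma adjusted p = 0.246).

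Other glycosylation pathways were covered by a list of glycosyltransferases, mannosidases, sulfotransferases and an epimerase. Of 24 measured genes on it, 21 had a mean above background and none was called against mock by limma with either prior. Unadjusted p-values under 0.05 were seen for 3 with the intensity-dependent and 2 with the single prior, near the 11.0% and 9.16% of all genes. Their median change was 0.09, with 5 of 24 lower. The proteoglycan linker gene beta4GalT7 had a change of 0.37 (SE 0.102, limma adjusted p = 0.166) and fng, which encodes the Notch-modifying transferase Fringe, one of 0.88 (SE 0.372, limma adjusted p = 0.416).

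Of the 12 hemocyte markers, 4 were lower in NELF-depleted than in mock cells, with a median change of 0.12, and 2 were called by limma, where 1.35% of all genes were. These were drpr (-0.87, SE 0.112, limma adjusted p = 0.00301) and eater (-0.87, SE 0.148, limma adjusted p = 0.0170), both receptors for engulfment, which fell. With the single prior neither was called. Among the 6532 genes above background, 130 were called lower and 32 higher with the intensity-dependent prior. The blood cell genes ush (0.42, SE 0.113, limma adjusted p = 0.146) and Pxn (0.52, SE 0.159, limma adjusted p = 0.217) were higher on both NELF-depleted arrays than on all 4 control arrays and were not called. Summed over the 12 markers, log2 levels ranged from 96.8 to 97.4 with NELF depleted, from 95.8 to 98.6 in mock and from 98.1 to 101 in untreated cells. The part of these markers in the Pgant2 result was not tested.

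**Figure D5:**
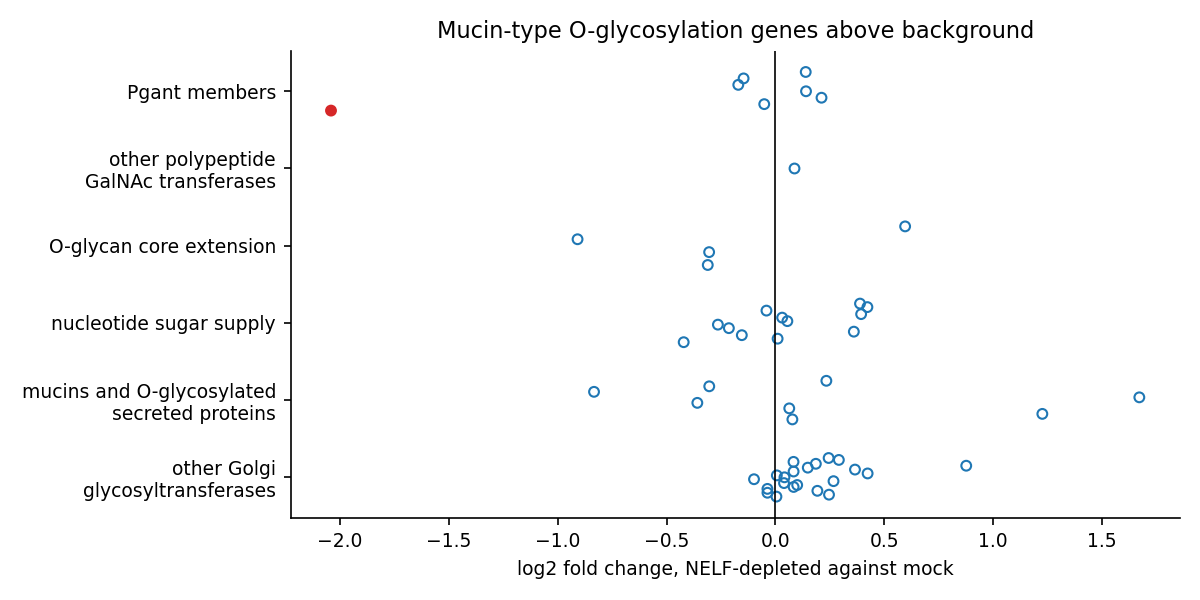
Log2 fold change in NELF-depleted against mock cells for genes with a mean above background in 6 lists. Each point is a gene, filled red where called by limma with an intensity-dependent prior; Pgant2 at -2.04 is the 1 filled point.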

How the data were processed

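The authors deposited 1 linear intensity per probe set and array. Per the labels' design text, data were obtained with GeneChip Operating Software (1.2.0.037) or Command Console (1.1) and imported into Rosetta Resolver (6.0); how probes were summarised and scaled was not given in the sources used here. The values were turned into log2(value + 0.819), where 0.819 is their 5th percentile, so folds of dim genes are understated. Arrays were quantile normalized, and 183 control probe sets were left out. Of the probe sets, 13643 carry 1 gene that could be named, and the brightest stood for its gene. Gene identifiers gave current RefSeq symbols for 11893 genes. The deposited files name no genome build, so no coordinates are printed. Positions in the RefSeq assembly served for gene order and overlap alone.

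All 11981 genes were fitted with limma 3.58.1 in R 4.3.3 (3 group means, 3 residual degrees of freedom, intensity-dependent prior, two-sided, Benjamini-Hochberg). The replicate number was no block, since the labels do not say what it marks. The number of arrays limits the precision: the median difference between arrays of a group was 0.140 to 0.165 above background and 0.787 to 0.863 below it. No probe set had equal values on both arrays of a group. The fit was also run on simulated data with known answers. That simulation had independent noise for each gene and no scaling shift, so it cannot speak to the choice of scaling. Alternatives covered the prior, scaling, offset, filter, probe set rule, replicate block and leaving out arrays.

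Members, lists and tests, including the choice of prior, were chosen with earlier results of these data known. Named genes are all members, all measured family members, both NELF targets, in each list the genes called and those of smallest p, and the 5 genes nearest to Pgant2. CG3246, msl-2, C1GalTA, GlcAT-P, GlcAT-S, Tig, Hml, ush, Pxn and the genes beside members were named for position or role after their values were seen. Markers of other cell types of smallest p were vas, with a mean below background, and shg (0.67), neither called.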

Additional observations from a re-analysis of the deposited data

How the results depend on the processing

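The Pgant2 change against mock stayed negative in all 15 alternatives, between -2.48 and -1.56, and was called in 13 of them. It was not called with a single prior variance or with an offset of 50 intensity units (adjusted p = 0.0527), each leaving 0 members called; the single prior also left 0 against untreated cells. Leaving out single arrays gave changes from -2.45 to -1.64, the smallest without mock replicate 1, and kept 1 member called. Against untreated cells, leaving out untreated replicate 1 ended the call (change -1.79, adjusted p = 0.0511), so members called ranged from 0 to 1. Scaling on 9 spiked-in hybridization control probe sets called 5 members lower against mock (Pgant2, Pgant3, Pgant4, Pgant6 and Pgant7) and 4 against untreated cells. Of all 11981 genes it called 3004 (2987 lower, 17 higher) and 2350 (2331 lower, 19 higher), in the same order. That scaling put the median change of all genes at -0.424 and -0.352, and against untreated cells it was -0.372 as deposited and -0.140 on array medians; relative to the first of these the values were -2.06 for Pgant2, -0.04 for Pgant3, -0.17 for Pgant6, -0.15 for Pgant7, 0.14 for Pgant5 and 0.22 for Pgant35A. Without that allowance Pgant5, Pgant9 and Pgant35A were at -0.28, -0.34 and -0.20.

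Over all genes, 162 were called against mock and 169 against untreated cells. Against mock this became 0 with a single prior, 54 as deposited and 54 on array medians. It was 74 with an offset of 50 units, 247 among genes above the median level and 271 with the replicate block. The split of 130 lower to 32 higher became 53 to 1 as deposited and 48 to 6 on array medians. Against untreated cells the counts became 0 with a single prior, 89 with the larger offset and 270 with the replicate block. The split of 141 to 28 became 187 to 1 as deposited and 124 to 2 on array medians. Leaving out single arrays gave 65 to 127 calls against mock and 70 to 146 against untreated cells; the count moved by over 1.5 times without any 1 of the 4 arrays of the groups compared, and the lone array left is assumed to vary like the other groups. Mock against untreated gave 0 in every setting. The replicate block left Pgant2 as the called member, with an SE of 0.136; differences between arrays of the same number correlated at 0.145 to 0.158 across genes, and the labels do not say what the numbers mark. Testing each probe set, added after seeing the data, also called Pgant2 alone, by its bright probe set. The dim Pgant2 probe set was not called (limma adjusted p = 0.316 against mock and 0.401 against untreated cells). No cause was tested. Of 399 member values, 35 changed sign, none of them a called one.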
